A study of Mus musculus with 36 samples.

Results

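The IL-1 family genes examined here were the ligands Il1a, Il1b and Il18, the soluble inhibitors Il1rn and Il18bp, and the receptor genes Il1r1, Il1r2, Il1rap and Il1rl1. They were taken from the gene count table by their symbols, and all 9 were found among its 54532 genes. The counts came from bone marrow-derived macrophages (BMDMs) of female C57BL/6 mice aged 13 to 17 weeks, grown with MCSF for 7 days. CCM, the Core Circadian Modulator, is a small molecule that binds the PASB domain of the clock transcription factor BMAL1, and LPS, from the outer membrane of Gram-negative bacteria, activates macrophages. KO macrophages carried LysM-Cre and floxed Bmal1 alleles (n = 6 in each group). WT macrophages carried the floxed alleles without Cre (n = 3 in each group). Treatment lasted 6 h, with DMSO as vehicle, CCM at 100 µM, LPS at 100 nM, or LPS together with CCM, and gave 36 libraries. LysM-Cre acts in myeloid cells, so deletion depends on its activity in the cultured macrophages.

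IL-1α and IL-1β, the products of Il1a and Il1b, signal through the receptor IL-1R1 (Il1r1) with its partner chain IL-1RAP (Il1rap). The receptor antagonist made from Il1rn occupies IL-1R1 without a signal, and IL-1R2 (Il1r2) is a decoy receptor. IL-18 is held in check by a soluble binding protein (Il18bp), ST2 (Il1rl1) is the receptor of IL-33 and also pairs with IL-1RAP, and IL-1β and IL-18 are made as precursors that caspase-1 cleaves after inflammasome assembly.

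Between 13469262 and 28288923 read pairs were counted on genes per library (median 19951421). The macrophage identity was checked with 8 macrophage markers, each of which had a median level of at least 1 CPM (counts scaled by library total and TMM factor), with a sum of 3620 to 8690 CPM per library. Markers of other cells were present too. The 5 fibroblast markers summed to 296 to 1660 CPM, the 10 neutrophil markers to 460 to 1240 and the 3 monocyte markers to 31.6 to 203. The 8 mast cell and basophil markers summed to 18.4 to 175 CPM, with the mast cell proteases Cma1 and Tpsb2 at medians under 0.1 CPM. Dendritic cell, T cell, B cell and erythroid markers each summed to at most 14.3 CPM and endothelial markers to 5.31 to 50.8. The libraries of KO replicate 6 stood apart. Their median correlation with the libraries of their own group was 0.857 to 0.915, against at least 0.957 in each other KO library and at least 0.987 in WT. The Bmal1 gene, listed as Arntl, was at 7.28, 8.61 and 9.76 CPM in the WT vehicle libraries and at a lowest, median and highest level of 2.98, 7.60 and 7.75 CPM in KO vehicle libraries, a log2 fold change of -0.34 (SE 0.26, edgeR adjusted p = 1). These counts cover the whole gene, including exons outside the floxed part, and therefore do not measure the deletion.

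Differences were tested with edgeR's quasi-likelihood test on the groups compared, and a gene is named called where its adjusted p was 0.05 or less. Levels within a gene are given in CPM. Levels of different genes are compared as RPKM, which divides CPM by the gene length in kb, except where stated. In bulk RNA, fewer cells of a type and less RNA per cell cannot be told apart.

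In unstimulated WT macrophages Il1rn had the highest level per length, 11.0 ± 1.96 RPKM (SD, n = 3). Il18bp followed with 7.60 ± 0.464 and Il18 with 5.17 ± 0.966 RPKM. Il1b (1.28 ± 0.273), Il1rap (0.800 ± 0.0906), Il1a (0.796 ± 0.0476) and Il1rl1 (0.694 ± 0.198 RPKM) lay within a narrow band, and the ranges of Il1a, Il1rap and Il1rl1 overlapped. Il1r1 (0.316 ± 0.143) and Il1r2 (0.144 ± 0.120 RPKM) were lowest, and their ranges overlapped as well. Under LPS the order turned, with Il1b at 2060 ± 299, Il1a at 681 ± 103 and Il1rn at 348 ± 39.5 RPKM. The order of these means in KO macrophages under LPS was the same, at 2040 ± 559, 546 ± 101 and 343 ± 23.3 RPKM (n = 6).

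Il1a, Il1b and Il1rn lie on chromosome 2 and Il1r1, Il1r2 and Il1rl1 on chromosome 1, within the interval from 40074079 to 40465415 of GRCm38 for the 3 receptor genes. The RefSeq sequence before the transcription start was read for each gene (GRCm38.p6, 250 bases before the start, 5′ to 3′ on the strand of the gene). Windows are shown for the 3 ligand genes and Il1rn, which rose most with LPS, and for Il1r2, where the canonical E-box bound by CLOCK and BMAL1 was found. Capitals mark matches to the AP-1 motif TGANTCA or the E-box CACGTG.
Il1a (chr2:129309973-129310222, minus strand): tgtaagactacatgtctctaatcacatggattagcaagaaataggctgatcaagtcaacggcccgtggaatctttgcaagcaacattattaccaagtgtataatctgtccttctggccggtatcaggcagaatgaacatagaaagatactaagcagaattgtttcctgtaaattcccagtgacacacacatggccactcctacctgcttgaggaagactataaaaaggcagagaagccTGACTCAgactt
Il1b (chr2:129371140-129371389, minus strand): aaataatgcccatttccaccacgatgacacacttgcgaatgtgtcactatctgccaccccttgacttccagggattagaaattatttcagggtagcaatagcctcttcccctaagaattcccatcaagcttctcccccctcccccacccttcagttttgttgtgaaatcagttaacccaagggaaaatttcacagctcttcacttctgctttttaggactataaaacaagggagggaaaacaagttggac
Il1rn (chr2:24336610-24336859, plus strand): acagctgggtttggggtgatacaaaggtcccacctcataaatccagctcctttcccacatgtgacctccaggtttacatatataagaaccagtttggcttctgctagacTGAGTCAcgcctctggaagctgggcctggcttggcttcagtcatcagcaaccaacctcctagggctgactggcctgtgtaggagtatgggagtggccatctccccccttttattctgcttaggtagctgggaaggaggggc
Il18 (chr9:50554450-50554699, plus strand): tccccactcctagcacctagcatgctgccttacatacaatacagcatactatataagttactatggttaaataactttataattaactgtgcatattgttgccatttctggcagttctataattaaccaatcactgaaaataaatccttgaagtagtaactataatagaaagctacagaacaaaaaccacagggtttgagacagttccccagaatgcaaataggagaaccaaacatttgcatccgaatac
Il1r2 (chr1:40085843-40086092, plus strand): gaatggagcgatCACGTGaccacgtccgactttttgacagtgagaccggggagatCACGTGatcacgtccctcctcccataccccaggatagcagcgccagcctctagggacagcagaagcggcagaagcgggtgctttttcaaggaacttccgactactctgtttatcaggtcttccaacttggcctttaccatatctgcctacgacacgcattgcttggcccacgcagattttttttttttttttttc
Both strands were searched for these motifs, for the kappaB motif and for the interferon-stimulated response element (ISRE), which can overlap each other. The window of Il1a held an AP-1 match at -12 to -6 from the start. Il1rn had 3 windows, and the first, which is the one shown, held an AP-1 match at -141 to -135. No match to the motifs searched was found in the other windows of Il1rn. The window of Il1r2, which lies inside the gene's annotated interval, held E-box matches at -238 to -233 and at -195 to -190. A kappaB match was found in the second of 2 windows of Il1r1, at -232 to -223. No match to these 4 motifs was found in these windows of Il1b, Il18, Il18bp, Il1rap and Il1rl1. Of 32851 promoter windows of the same length, 6.02% held the E-box, 6.75% the AP-1 motif, 7.25% the kappaB motif and 2.98% the ISRE.

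LPS raised both IL-1 ligand genes more than any other of the 9. Il1b (ENSMUSG00000027398, chromosome 2, 129364570 to 129371139, minus strand) was at 1.84, 2.69 and 2.78 CPM in WT vehicle libraries and at 3668, 4592 and 3551 CPM with LPS. The groups were far apart, with a log2 fold change of 10.66 (SE 0.18, edgeR adjusted p = 3.41e-11), or 1613-fold. Il1a (ENSMUSG00000027399, chromosome 2, 129299610 to 129309972, minus strand) was at 1.62, 1.63 and 1.46 CPM with vehicle and at 1316, 1560 and 1157 CPM with LPS, a log2 fold change of 9.75 (SE 0.16, edgeR adjusted p = 2.96e-11). Il1b overlaps the antisense gene Il1bos, which had 893 counts over all libraries against 1163653 for Il1b, and Il1a overlaps Gm14023 with 3618 counts against 319444, so shared reads are uncertain where the counting did not use strand.

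**Figure D1:**
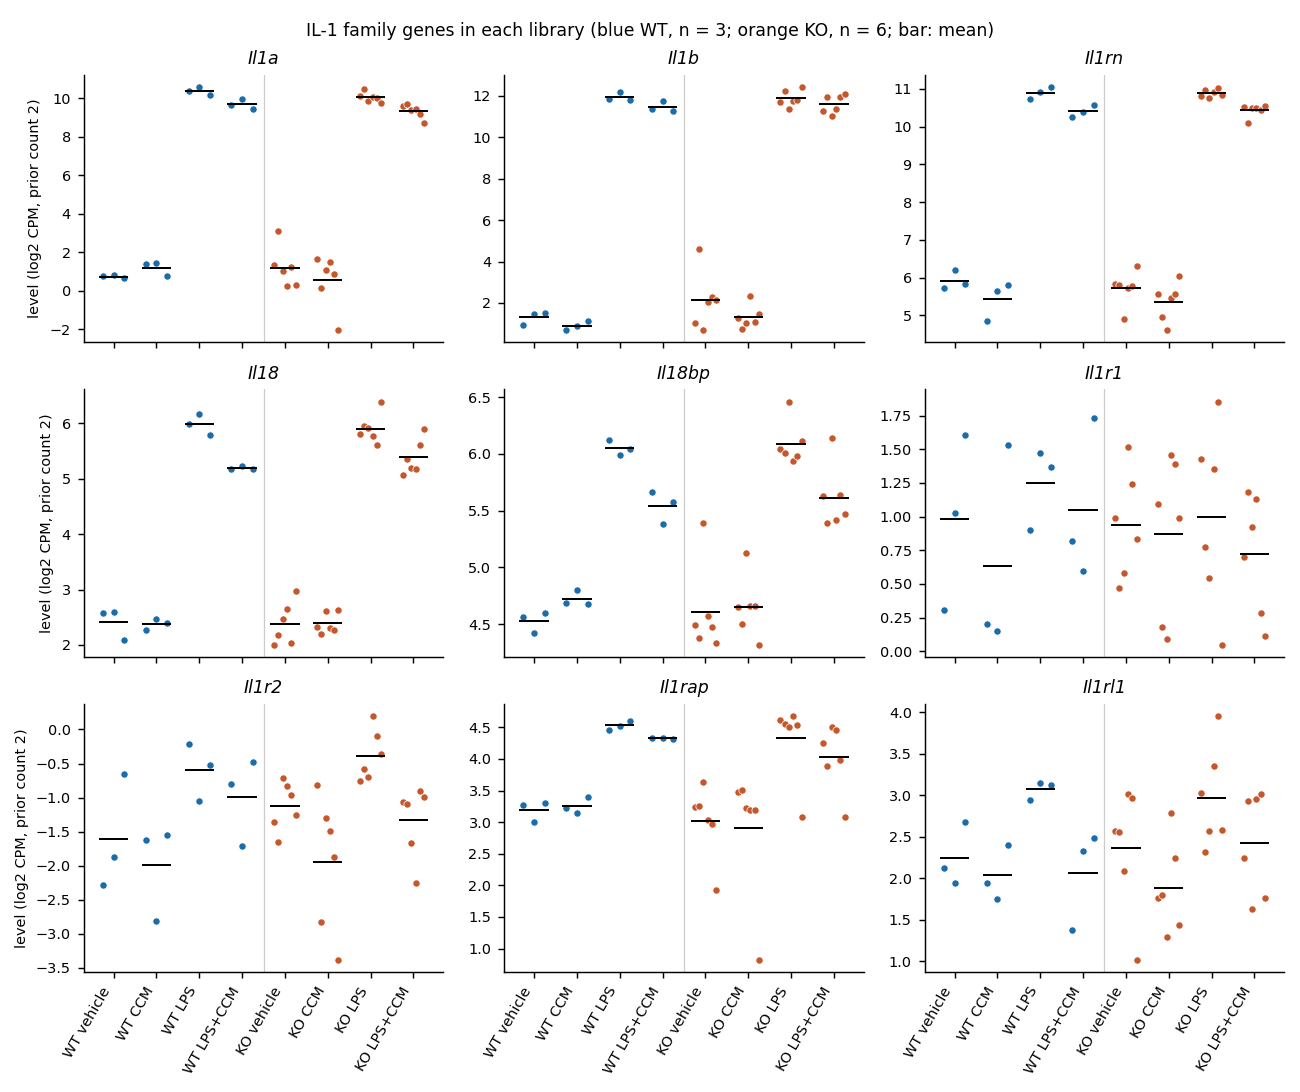
Level of each of the 9 genes in each of the 36 libraries (log2 CPM with a prior count of 2, vertical axes differ between panels), by genotype and treatment, with the mean of each group as a bar. Il1a, Il1b, Il1rn and Il18 are higher in all LPS-treated libraries than in all libraries without LPS, Il18bp overlaps only through KO vehicle replicate 3 (41.80 CPM), and Il1r1 overlaps between all groups.

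In KO macrophages the ligands also rose, from a more scattered base. Il1b ran from 1.54 to 23.99 CPM with vehicle (median 4.14) and from 2671 to 5549 CPM with LPS (median 3519), a log2 fold change of 9.16 (SE 0.79, edgeR adjusted p = 5.45e-07). Il1a ran from 1.09 to 8.55 CPM with vehicle (median 2.07) and from 857.1 to 1434 CPM with LPS (median 1064), a log2 fold change of 8.52 (SE 0.56, edgeR adjusted p = 4.17e-08). Both highest vehicle values came from KO replicate 2. Without that library the log2 fold changes were 10.18 for Il1b and 9.22 for Il1a.

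Il18 and both inhibitor genes rose with LPS by smaller factors. Il18 (ENSMUSG00000039217, chromosome 9, 50554827 to 50581840, plus strand) was at 5.84, 5.96 and 4.18 CPM in WT vehicle libraries and at 63.13, 71.95 and 55.57 CPM with LPS, a log2 fold change of 3.60 (SE 0.14, edgeR adjusted p = 9.26e-09). Il1rn (ENSMUSG00000026981, chromosome 2, 24336853 to 24351494, plus strand) rose from 52.77, 73.17 and 56.47 to 1697, 1944 and 2133 CPM, a log2 fold change of 4.99 (SE 0.14, edgeR adjusted p = 9.21e-10). Neither gene's groups overlapped. Il18bp (ENSMUSG00000070427, chromosome 7, 102014885 to 102018690, minus strand) rose least of these, from 23.48, 21.42 and 24.10 to 69.51, 63.49 and 65.92 CPM, a log2 fold change of 1.53 (SE 0.072, edgeR adjusted p = 3.71e-08). Its interval overlaps Numa1 on the other strand, a gene with 138305 counts over all libraries against 29889 for Il18bp, and that part of its count is uncertain. Il18 overlaps Bco2 and Tex12, which had 1949 and 300 counts against 19083.

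In KO macrophages the log2 fold changes of these 3 genes with LPS were 3.52 (SE 0.21) for Il18, 5.10 (SE 0.21) for Il1rn and 1.44 (SE 0.18) for Il18bp, with edgeR adjusted p of 1.77e-08, 6.22e-10 and 2.23e-05. The lowest, median and highest Il1rn levels were 29.77, 55.23 and 79.36 CPM with vehicle and 1737, 1888 and 2084 CPM with LPS. For Il18 they were 3.90, 4.93 and 7.80 CPM with vehicle and 48.97, 57.90 and 84.10 CPM with LPS. KO vehicle and KO LPS libraries did not overlap for either gene.

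Of the receptor genes, the shared chain Il1rap (ENSMUSG00000022514, chromosome 16, 26581704 to 26730117, plus strand) rose in both genotypes. In WT it was at 9.56, 7.91 and 9.79 CPM with vehicle and at 21.97, 22.96 and 24.23 CPM with LPS, a log2 fold change of 1.34 (SE 0.11, edgeR adjusted p = 2.06e-06). In KO it ran from 3.70 to 12.32 CPM with vehicle (median 8.72) and from 8.35 to 25.44 with LPS (median 23.25), a log2 fold change of 1.31 (SE 0.28, edgeR adjusted p = 0.00172). The lowest KO value in each of the 4 treatments came from replicate 6, and only through that library did the KO groups overlap.

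Il1rl1 (ENSMUSG00000026069, chromosome 1, 40429570 to 40465415, plus strand), which encodes ST2, was at 4.26, 3.75 and 6.33 CPM in WT vehicle libraries and at 7.62, 8.81 and 8.63 CPM with LPS, a log2 fold change of 0.80 (SE 0.20, edgeR adjusted p = 0.00608). The groups did not overlap, but the call was lost when libraries were scaled by total counts alone (adjusted p = 0.107) and when all 36 libraries were fitted together (adjusted p = 0.172). In KO the groups overlapped, at 1.93 to 7.998 CPM with vehicle and 4.89 to 15.37 CPM with LPS, and the log2 fold change of 0.57 (SE 0.34) was not called (edgeR adjusted p = 0.20). Vehicle and LPS libraries of KO that share a number departed from their group means together, and a fit that had this number as a block called Il1rl1 in KO (0.54, adjusted p = 0.0153), as were 9774 of all genes against 6433 without it.

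The signalling receptor Il1r1 (ENSMUSG00000026072, chromosome 1, 40225080 to 40317257, plus strand) was at 1.14, 1.94 and 2.96 CPM in WT vehicle libraries and at 1.77, 2.68 and 2.49 CPM with LPS, with overlapping groups. Its log2 fold change was 0.20 (SE 0.34, edgeR adjusted p = 0.63) in WT and 0.13 (SE 0.31, edgeR adjusted p = 0.77) in KO, and the sign turned in both genotypes with total counts alone. The decoy receptor Il1r2 (ENSMUSG00000026073, chromosome 1, 40074079 to 40125231, plus strand) had 282 counts over all 36 libraries. It was at 0.110, 0.177 and 0.538 CPM with vehicle and at 0.768, 0.389 and 0.602 CPM with LPS in WT, a log2 fold change of 0.98 (SE 0.57, edgeR adjusted p = 0.16). Without WT vehicle replicate 3, the highest of the 3, it was 2.004 and called (adjusted p = 0.0137). That library, also the highest of the 3 for Il1r1, had a fibroblast marker sum of 1350 CPM, against 476 and 680 in the other WT vehicle libraries. The part of these cells in the levels was not tested. In KO, Il1r2 did not pass the filter on low counts. It was at 0.22 to 0.51 CPM with vehicle and 0.50 to 1.05 with LPS, with overlap but higher in 6 of 6 same-numbered pairs. DESeq2 called Il1r2 in KO, and edgeR with no filter did not.

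In all, 7 of the 9 genes tested were called higher with LPS in WT, where 30.6% of all tested genes were called higher, and 0 lower, where 32.4% were. In KO, 6 of the 8 tested were called higher, where 22.4% of all genes were, and 0 lower, where 24.7% were. The median log2 fold change was 1.53 over the 9 genes in WT and 2.48 over the 8 in KO, against -0.05 over all genes tested in each genotype. The LPS response was compared directly between genotypes as an interaction. It was called for 0 of the 9 genes and for 0% of all 15093 tested, with 0 of the 9 at an unadjusted p under 0.05 and 0 called by DESeq2. The largest estimates were -1.48 (SE 0.86) for Il1b and -1.21 (SE 0.64) for Il1a, and without KO vehicle replicate 2 they were -0.45 and -0.49.

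**Figure D2:**
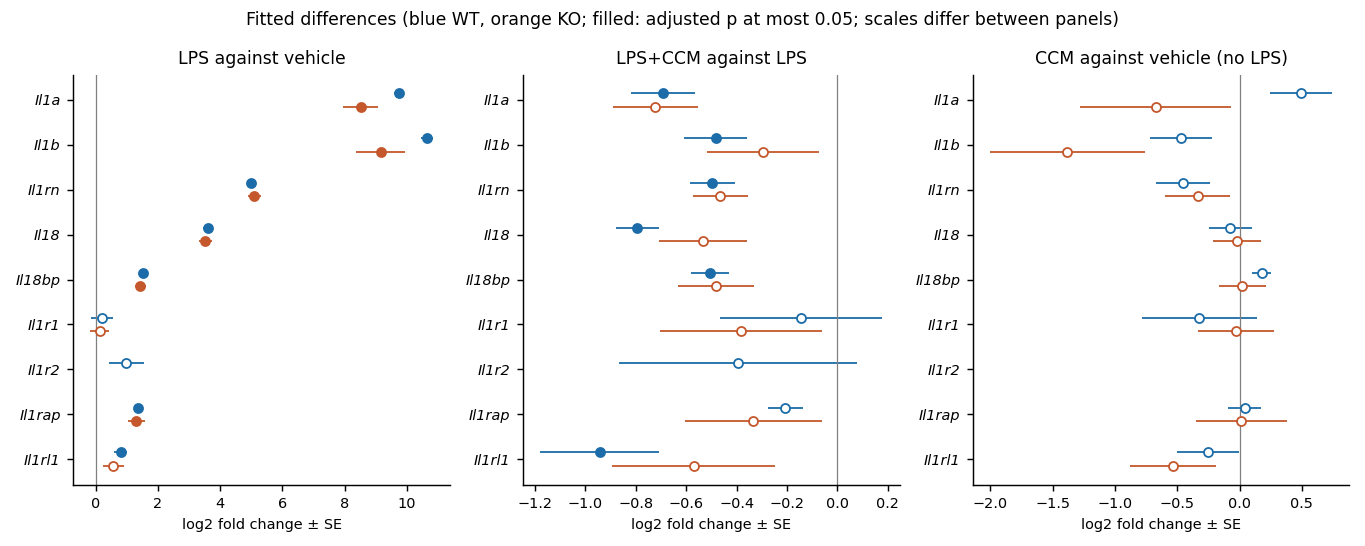
Fitted log2 fold change with its SE for each gene in WT (blue) and KO (orange), for LPS against vehicle, LPS+CCM against LPS, and CCM against vehicle, with filled points for an adjusted p of at most 0.05. The points under LPS+CCM lie below 0 for every gene tested in both genotypes, filled for 6 genes in WT and for 0 in KO, from fits without a block.

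The genes that act before and after the receptors were counted from lists of the pathway. Of 17 genes of maturation and release, 10 rose and 5 fell with LPS in WT, to be read against the 30.6% of all genes called higher and the 32.4% called lower. The inflammasome sensor Nlrp3 rose by 4.38 (SE 0.081) on the log2 scale and the inflammatory caspase Casp4 by 4.08 (SE 0.069), while the sensor Nlrp1b changed by -4.05 (SE 0.20), and the pyrin gene Mefv rose by 3.52 (SE 0.077). Of 16 genes of receptor signalling, 11 rose and 4 fell, led by Irak3, an inhibitory kinase of the pathway, at 3.83 (SE 0.069), the adaptor Myd88 at 2.18 (SE 0.083) and Irak2 at 2.03 (SE 0.083). Of 14 NF-kB genes and induced regulators, 12 rose, among them Nfkb2 at 4.08 (SE 0.063) and Nfkbiz at 3.98 (SE 0.13). Of 6 further ligand genes, 2 were tested and both rose, Il1f6 (IL-36α) by 10.16 (SE 0.54) and Il1f9 (IL-36γ) by 4.98 (SE 0.14). Of 6 further receptor genes, 4 were tested, of which Il18r1 rose by 0.96 (SE 0.36) and Sigirr, an inhibitory receptor, changed by -1.32 (SE 0.35). In KO the 5 lists, in the same order, had 10, 6, 12, 2 and 0 genes higher and 4, 2, 0, 0 and 2 lower, where 22.4% and 24.7% of all genes were.

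With CCM alone no gene of the family passed the test. Of the 8 genes tested, 0 were called in WT, where 0.057% of all genes were called, and 0 in KO, where 0% were. At an unadjusted p under 0.05 there was 1 gene in each genotype, Il18bp in WT and Il1b in KO, and DESeq2 called 0 of them in either. Il18bp was at 25.61, 27.78 and 25.56 CPM with CCM, each above the 3 WT vehicle libraries, a log2 fold change of 0.18 (SE 0.077, edgeR adjusted p = 0.49). Il1b was at 1.52, 1.76 and 2.06 CPM with CCM in WT, a log2 fold change of -0.47 (SE 0.25, edgeR adjusted p = 0.58). In KO Il1b was -1.38 (SE 0.62, edgeR adjusted p = 1), and -0.37 without vehicle replicate 2. Il1a differed in sign between the genotypes, at 0.49 (SE 0.25) in WT and -0.67 (SE 0.60) in KO, with adjusted p of 0.56 and 1, and in KO it was 0.03 without vehicle replicate 2.

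Il1rn had estimates below 0 with CCM alone in both genotypes. It was at 28.78, 49.97 and 55.61 CPM in WT, overlapping the vehicle libraries, and at 24.35 to 65.55 CPM in KO (median 45.38), lower in 6 of 6 same-numbered pairs. The log2 fold change was -0.45 (SE 0.22, edgeR adjusted p = 0.53) in WT and -0.34 (SE 0.26, edgeR adjusted p = 1) in KO. It was called in WT with no filter on low counts (adjusted p = 0.0115), a setting that called 377 of 25725 genes against 8 of 14024. In KO, where same-numbered vehicle and CCM libraries also deviated together, Il1rn was called once the replicate number entered as a block (-0.36, adjusted p = 0.03), as were 429 of all genes against 0 without it. Marker sums of other cells moved with CCM alone in WT without overlap. The 3 monocyte markers summed to 54.2 to 65.9 CPM with vehicle and 31.6 to 53.0 with CCM, the 8 mast cell and basophil markers to 29.8 to 33.8 and 18.5 to 22.4, and the 5 dendritic cell markers, of which 2 had a median of at least 1 CPM, to 2.98 to 4.24 and 1.42 to 2.68. Their part in the levels of Il1rn was not tested.

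Under LPS, CCM lowered 6 of the 9 genes in WT macrophages, where 7.78% of all tested genes were called lower. With the replicate number as a block, 6 of the 9 were called too, among 3220 of all genes against 1621 without it. The 6 genes without the block were the 3 ligand genes, both inhibitor genes and Il1rl1. Il18 had the lowest adjusted p. It was at 36.26, 37.47 and 36.14 CPM with LPS+CCM against 63.13, 71.95 and 55.57 CPM with LPS alone, a log2 fold change of -0.79 (SE 0.087, edgeR adjusted p = 0.000262). Il1a was at 798.5, 993.8 and 703.0 CPM with LPS+CCM, with no overlap with LPS alone, a log2 fold change of -0.69 (SE 0.13, edgeR adjusted p = 0.00599). Il1b was at 2593, 3413 and 2442 CPM, a log2 fold change of -0.48 (SE 0.13, edgeR adjusted p = 0.0322). The highest Il1b library with LPS+CCM lay below the lowest with LPS alone, at 3413 and 3551 CPM. The Il1b call was lost with DESeq2 (adjusted p = 0.0814), with total counts alone (0.0543), and without LPS replicate 2 (0.125), LPS+CCM replicate 1 (0.0848) or LPS+CCM replicate 3 (0.103).

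The inhibitor genes fell by like amounts. Il1rn was at 1223, 1352 and 1514 CPM with LPS+CCM, each below the 3 libraries with LPS alone, a log2 fold change of -0.50 (SE 0.089, edgeR adjusted p = 0.00547). Il18bp was at 50.60, 41.60 and 47.70 CPM, also without overlap, a log2 fold change of -0.51 (SE 0.075, edgeR adjusted p = 0.00175). Il1rl1 was at 2.50, 4.92 and 5.52 CPM with LPS+CCM against 7.62, 8.81 and 8.63 with LPS alone, a log2 fold change of -0.94 (SE 0.24, edgeR adjusted p = 0.0271). This call was lost without LPS replicate 2 (0.0963), LPS replicate 3 (0.0702) or LPS+CCM replicate 2 (0.068). ST2 is also known from mast cells, and the 8 mast cell and basophil markers, 5 of which had a median of at least 1 CPM, summed to 144 to 160 CPM with LPS and 98.0 to 131 with LPS+CCM in WT. With vehicle they summed to 29.8 to 33.8 CPM. Of the list, Hdc rose with LPS in WT (log2 fold change 5.04, SE 0.11). Ms4a2 (0.47), Cpa3 (0.38), Mcpt8 (0.23), Prss34 (0.22) and Fcer1a (-0.34) were not called, so the rise of the sum came mainly from Hdc. With LPS+CCM against LPS, Hdc (-0.45) and Ms4a2 (-1.49) were called lower, and Cpa3, Mcpt8, Prss34 and Fcer1a were not called. The part of these markers' cells in the level of Il1rl1 was not tested.

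The other 3 receptor genes were not called. Il1rap was at 20.12, 19.99 and 19.84 CPM, below the 3 libraries with LPS alone, a log2 fold change of -0.21 (SE 0.069, edgeR adjusted p = 0.0845). Il1r1 was -0.14 (SE 0.32) and Il1r2 -0.39 (SE 0.47), with adjusted p of 0.83 and 0.66 and overlapping groups. The median over the 9 genes was -0.50, against 0.01 over all genes tested. With all 36 libraries in 1 fit, in which WT shares its spread with the more variable KO libraries, 0 of the 9 genes were called in this comparison and 17 genes in all, against 1621. The monocyte markers summed to 99.1 to 107 CPM with LPS and 62.3 to 94.4 with LPS+CCM in these WT libraries, with 3 of 3 markers at a median of at least 1 CPM. Neutrophil markers summed to 547 to 591 and 468 to 553 CPM, and fibroblast markers to 514 to 729 and 602 to 700 CPM. The 3 endothelial markers, all with a median of at least 1 CPM, summed to 22.3 to 23.6 CPM with LPS and 9.05 to 11.6 with LPS+CCM, and the dendritic cell markers to 9.54 to 11.6 and 6.44 to 8.80 CPM, both without overlap. Of the dendritic cell list, Ccr7 (2.87) and Xcr1 (2.94) rose with LPS in WT, while Flt3 changed by -1.77 and Zbtb46 (0.21) was not called. With LPS+CCM against LPS, Ccr7 (-0.36), Xcr1 (-0.95) and Zbtb46 (-0.22) were not called. With vehicle the endothelial markers summed to 7.5 to 50.8 CPM in WT (median 8.48), with the highest value in replicate 3. The part of the cells of these lists in the differences was not tested.

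In LPS-treated KO macrophages the estimates for CCM lay below 0 for each of the 8 genes tested, but 0 were called in the fit without a block, where 0.105% of all genes were called lower. At an unadjusted p under 0.05 there were 4, Il1a, Il1rn, Il18 and Il18bp. Il1a ran from 857.1 to 1434 CPM with LPS (median 1064) and from 423.4 to 841.7 with LPS+CCM (median 678.5), with no overlap, a log2 fold change of -0.72 (SE 0.17, edgeR adjusted p = 0.12). Il1rn ran from 1737 to 2084 CPM with LPS (median 1888) and from 1093 to 1487 with LPS+CCM (median 1448), again with no overlap, a log2 fold change of -0.46 (SE 0.11, edgeR adjusted p = 0.12). Il1a, Il1rn and Il18bp were lower in 6 of 6 same-numbered pairs. Pair counts are a description only here, since same-numbered libraries were not taken as paired in this KO comparison (correlations of -0.102 to 0.813).

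For the other genes tested the KO groups overlapped. Il18 had a lowest, median and highest level of 33.34, 38.75 and 59.74 CPM with LPS+CCM, against 48.97, 57.90 and 84.10 with LPS, and a log2 fold change of -0.53 (SE 0.17, edgeR adjusted p = 0.36). Il18bp was at 41.90, 46.80 and 70.38 CPM with LPS+CCM, against 61.36, 65.10 and 88.06 with LPS, and differed by -0.48 (SE 0.15, edgeR adjusted p = 0.33). Il1b had 2070, 3233 and 4372 CPM against 2671, 3519 and 5549, the smallest difference of the 8 at -0.30 (SE 0.22, edgeR adjusted p = 0.83). It was lower in 5 of 6 pairs. Il1rap (-0.33, SE 0.27), Il1rl1 (-0.57, SE 0.32) and Il1r1 (-0.38, SE 0.32) had adjusted p of 0.84, 0.73 and 0.84.

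The estimated common coefficient of biological variation for this comparison was 0.315 in KO and 0.078 in WT. Without KO replicate 6 in either group, Il1a, Il1rn and Il18 were called in KO (adjusted p of 0.029, 0.0444 and 0.0453), among 170 of 13429 genes against 15 of 13386 with it. Replicate 6 also had the lowest Arntl level of both groups (2.13 and 3.94 CPM). DESeq2 called Il1a and Il1rn (0.00888 and 0.00188), among 180 of 13868 genes.

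**Figure D3:**
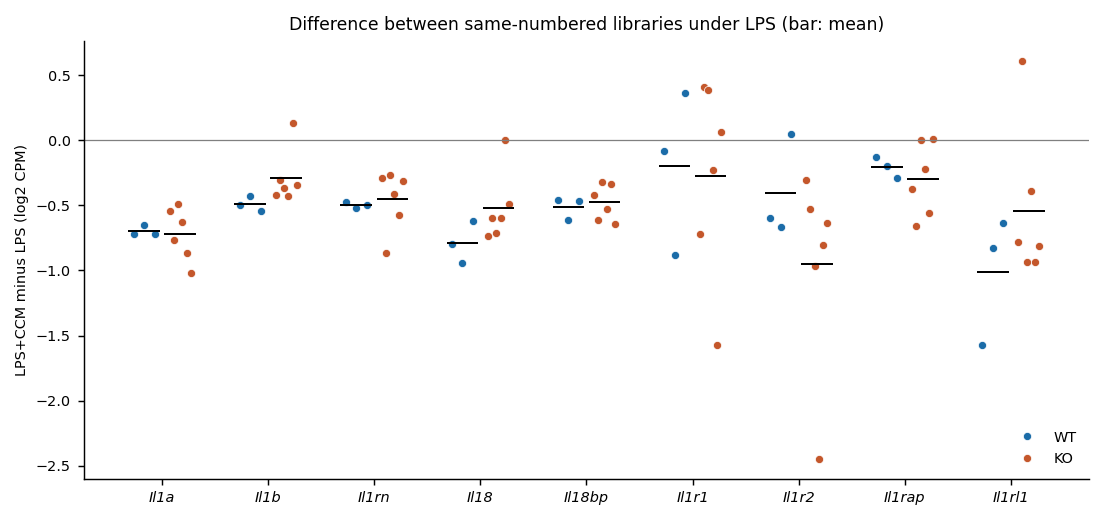
Difference in log2 CPM between LPS+CCM and LPS for libraries with the same replicate number, 3 pairs in WT (blue) and 6 in KO (orange), with the mean as a bar. All pairs of Il1a, Il1rn and Il18bp lie below 0 in both genotypes, while Il1r1 has pairs on both sides. The KO libraries are matched by number only and were not taken as paired in this comparison.

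The difference in the CCM effect between genotypes under LPS was tested as an interaction. It was called for 0 of the 9 genes and for 0% of the 14546 genes tested, with 0 of the 9 at an unadjusted p under 0.05. The estimates ran from -0.71 to 0.39, with 0.28 (SE 0.27) for Il18 and 0.20 (SE 0.35) for Il1b, and DESeq2 called 0 of the 9 too. A difference in the CCM effect between genotypes was thus not detected, which does not show that the effects were alike. The genotypes were also compared within a treatment, where 0 of the 9 genes were called with vehicle or with LPS, as were 0% of all genes in each, with 0 of the 9 at an unadjusted p under 0.05 and 0 called by DESeq2. With vehicle Il1b was 1.48 higher in KO on the log2 scale (SE 0.84, edgeR adjusted p = 1) and Il1a 0.89 higher (SE 0.63, adjusted p = 1), and without KO vehicle replicate 2 these were 0.47 and 0.19. With LPS Il1a was -0.32 (SE 0.16, edgeR adjusted p = 0.99), and the groups overlapped.

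Whether CCM acted differently with and without LPS was tested as an interaction within each genotype. In WT it was called lower for Il18bp and Il18, 2 of 9 genes, where 1.62% of all genes were called lower. Il18bp moved from 0.18 above vehicle with CCM alone to -0.51 with CCM under LPS, an interaction of -0.70 (SE 0.11, edgeR adjusted p = 0.00572), called whichever library was left out but not with all 36 libraries in 1 fit. The interaction of Il18 was -0.75 (SE 0.18, edgeR adjusted p = 0.0465), and it was lost without any 1 of 10 of the 12 libraries (adjusted p up to 0.116). That of Il1a was -1.20 (SE 0.31) and not called (edgeR adjusted p = 0.0677), while DESeq2 called it (0.00266). In KO 0 of the 9 genes were called, by edgeR or DESeq2, and 0 had an unadjusted p under 0.05, where 0.00685% of all genes were called. The KO estimates were -0.48 (SE 0.24) for Il18bp and -0.50 (SE 0.26) for Il18.

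LPS also raised these genes in the presence of CCM. With LPS+CCM against CCM alone, 6 of the 8 genes tested were called higher in WT, where 30.6% of all genes were, and 6 of 8 in KO, where 18.9% were. In WT the log2 fold changes were 10.62 (SE 0.18) for Il1b, 8.55 (SE 0.19) for Il1a, 4.93 (SE 0.21) for Il1rn, 2.85 (SE 0.084) for Il18, 1.08 (SE 0.097) for Il1rap and 0.83 (SE 0.082) for Il18bp. In KO, in the same order of genes, they were 10.28, 8.51, 4.996, 3.03, 0.99 and 0.96. The KO call of Il1rap (edgeR adjusted p = 0.0407) was lost with total counts alone, with no filter on low counts and without any 1 of 9 of the 12 libraries. This comparison shares its LPS+CCM libraries with the comparison against LPS, and the comparisons against vehicle share the vehicle libraries.

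Of the pathway genes under LPS, CCM lowered 6 of 17 genes of maturation and release in WT and raised 0, where 7.78% of all genes were called lower and 4.15% higher. These were Aim2 (-0.49, SE 0.061), Nlrp3 (-0.41, SE 0.080), Casp4 (-0.38, SE 0.042) and Casp8 (-0.38, SE 0.057) with Gsdmd and Casp1, which encode the pore-forming gasdermin D and the IL-1β-cleaving caspase. Of the NF-kB genes and regulators, 6 of 14 fell, led by Nfkb2 (-0.41, SE 0.046) and Rel (-0.40, SE 0.071). Of the receptor signalling genes Irak2 (-0.40, SE 0.081) and Myd88 (-0.35, SE 0.043) fell and Map3k3 rose (0.31, SE 0.050), among 16. Of the further ligands and receptors 0 of 2 and 0 of 3 tested were called. In KO 0 genes of these lists were called, where 0.105% of all genes were called lower.

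The balance of ligand and inhibitor transcripts within a library is given as a ratio of RPKM, as a description without a test. Whether a ratio lies above or below 1 depends on the gene lengths of the count table. Before scaling by length, mean levels in WT with LPS were 1920 CPM for Il1rn, 1340 for Il1a and 3940 for Il1b. They were 66.3 CPM for Il18bp and 63.6 for Il18. In WT vehicle libraries Il1rn exceeded Il1b by a ratio of 9.90, 9.36 and 7.01. With LPS the ratio was 0.171 ± 0.0321 (SD, n = 3), and with LPS+CCM it was 0.171 ± 0.0392. In KO it was 0.80 to 10.18 with vehicle (median 5.50), with the lowest value in replicate 2, 0.177 ± 0.0405 with LPS and 0.163 ± 0.0578 with LPS+CCM (n = 6). The ratio was above 1 in all libraries without LPS but KO vehicle replicate 2, and below 1 in all with LPS, and the LPS and LPS+CCM libraries overlapped.

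The ratio of Il18bp to Il18 was 1.52 ± 0.392 with vehicle, 0.360 ± 0.0534 with LPS and 0.434 ± 0.0502 with LPS+CCM in WT (n = 3). In KO it was 1.71 ± 0.596, 0.393 ± 0.0748 and 0.418 ± 0.142 (n = 6). The ratio of Il1a to Il1b in WT was 0.330 ± 0.0160 with LPS and 0.286 ± 0.0104 with LPS+CCM, and these groups did not overlap. In KO this ratio was 0.281 ± 0.0677 and 0.219 ± 0.0870, with overlap.

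**Figure D4:**
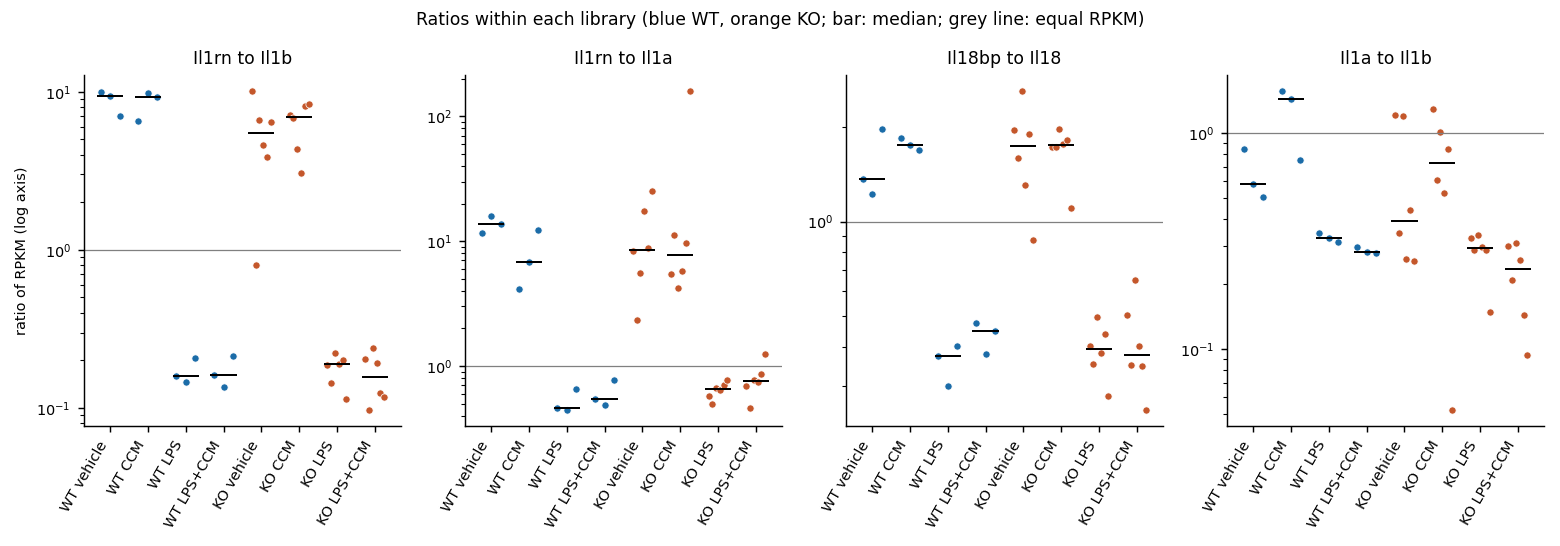
Ratio of RPKM values of 2 genes within each library, on log axes, by group, with the group median as a bar and a grey line at equal RPKM. The ratios of inhibitor to ligand lie below 1 in LPS-treated libraries, except the ratio of Il1rn to Il1a in KO LPS+CCM replicate 6 at 1.25. The place against 1 depends on the gene lengths used.

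The levels of Il1r1 and Il1rl1 followed the summed level of the 5 fibroblast markers (Col1a1, Col1a2, Col3a1, Dcn and Pdgfra, each with a median of at least 1 CPM) over the 36 libraries, with Pearson's r of 0.75 and 0.68 on log2 values. After the mean of each group was taken out, r was 0.78 and 0.76. For the other 7 genes r after this step ran from -0.41 (Il18) to 0.34 (Il1r2), with 0.17, 0.18 and 0.29 for Il1a, Il1b and Il1rn. Other lists gave values of like size after the same step. Il18 had r of 0.74 and Il1rap of -0.62 with the 10 neutrophil markers, 9 of which had a median of at least 1 CPM, and Il1rap had r of 0.74 and Il1rn of -0.71 with the 8 macrophage markers. KO replicate 6 had the highest neutrophil sum in each KO group. In KO LPS replicate 5, where the sum was highest at 1660 CPM, Il1r1 was at 3.52 and Il1rl1 at 15.37 CPM, each the highest of all 36 libraries. Groups of these libraries share a treatment, so r is a description only, and the part of these cells in the levels of the genes was not tested.

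**Figure D5:**
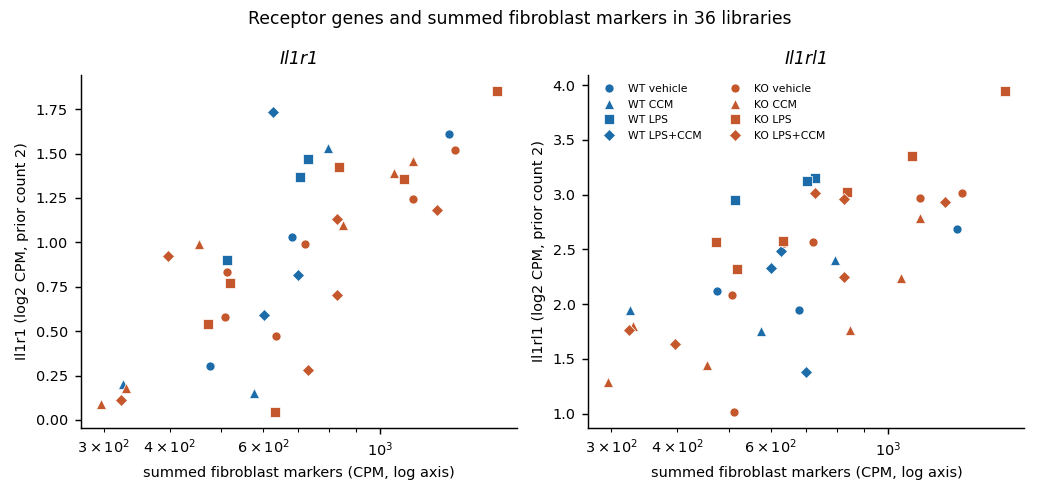
Level of Il1r1 and Il1rl1 (log2 CPM with a prior count of 2) against the summed CPM of 5 fibroblast markers on a log axis, 1 point per library, by genotype and treatment. The points spread around a rising trend (r of 0.75 for Il1r1 and 0.68 for Il1rl1), with KO LPS replicate 5 at the top right.

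The genes whose log2 CPM was most like that of each gene over the 36 libraries were read among 12351 genes. For Il1a they were Il6 (r = 0.996), Gpr84 and Cd69, and for Il1b the chemokine genes Ccl5 (r = 0.997) and Cxcl3 with Ifi205. For Il1rn they were Dhx58 (r = 0.995), Adora2a and Irf7, and for Il18 Gch1 (r = 0.993), Myd88 and Nmi. Il18bp (Cggbp1, r = 0.955) and Il1rap (Klf3, r = 0.983) had close matches too. For Il1rl1 the nearest was Plod2, a collagen-modifying enzyme (r = 0.869), and for Il1r1 the values were lower, with Gli3 (r = 0.827), Tead1 and the collagen receptor Ddr2. The LPS and non-LPS groups enter every r, which is a description only. Without KO replicate 6 (32 libraries), Il6 and Ccl5 stayed nearest to Il1a and Il1b, while Mmp13, Gsdmd and Klf6 were nearest to Il1rn, Il18 and Il18bp.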

How the data were processed

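BMDM libraries of 8 groups (3 WT and 6 KO replicates each, 36 in all) were grouped by the labels. Per the labels and methods, the authors used fastp for trimming, HISAT2 2.0.5 for alignment to mm10 and featureCounts 1.5.0-p3 for counting per gene, and tested differences with DESeq2. The deposited values are raw counts, with 0 columns left out. The strand setting is not given in the sources used here. The table's coordinates of the 9 genes equal those of GENCODE M21 on GRCm38.

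From the counts, each comparison was fitted on all genes of its own groups with edgeR 4.0.16 in R 4.3.3 (filterByExpr, TMM, glmQLFit, glmQLFTest, no block, two-sided, Benjamini-Hochberg adjustment, threshold 0.05). The scripts were tested on simulated data. CPM used TMM factors over all 36 libraries, log2 CPM a prior count of 2, and RPKM the table's gene length. Alternatives were DESeq2 1.42.0, RLE size factors, total counts alone, no filter beyond 1 count, a replicate block, all 36 libraries in 1 fit, leaving out each library, and leaving out KO replicate 6. All 9 genes were named in each comparison, with Arntl, at most 4 called genes per pathway list and the 3 genes most alike (median of at least 1 CPM). The members and lists were chosen with earlier results of these data known.

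Libraries of 1 group differed by more than counting noise (lowest ratio of chi-square to its degrees of freedom 4.34), and precision is therefore set by the spread among replicates. The study counts its replicates as mice, and the sources used here do not say whether libraries of different treatments with 1 number came from 1 mouse. Same-numbered libraries were taken as paired where their deviations from group means correlated above 0.1 in each pair. This held for LPS in KO (0.300 to 0.830), CCM alone in KO (0.337 to 0.839) and CCM under LPS in WT (0.151 to 0.360). RefSeq promoter windows matched all 9 genes.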

Additional observations from a re-analysis of the deposited data

Results flagged for a closer look

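In groups of 6 KO libraries, 6 of 36 combinations of gene and group had a library far from the others by Dixon's test, and chance flags about 1 in 20 groups. They fell on Il18bp, Il1rap and Il1rn. Il18bp was far above the others in KO replicate 3 in 3 treatments, at 41.80 CPM with vehicle (others 20.02 to 23.71), 88.06 with LPS (61.36 to 69.02) and 70.38 with LPS+CCM (41.90 to 49.86). With CCM alone replicate 3 was also the highest, at 34.90 CPM. Numa1, which overlaps Il18bp on the other strand, was highest in KO replicate 3 in each of the 4 treatments too, by less (280 CPM against 162 to 246 with vehicle and 106 against 55.1 to 104 with LPS), and its part was not tested.

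Il1rap was far below the others in KO replicate 6, at 1.67 CPM with CCM (others 9.002 to 11.23) and 8.35 with LPS (22.55 to 25.44). The same replicate had the highest neutrophil marker sum in each treatment (1170 to 1240 CPM) and the lowest correlation with its groups. Il1rn was lowest in KO LPS+CCM replicate 2, at 1093 CPM against 1403 to 1487 in the others. No difference of an effect between the genotypes was called for the 9 genes.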

How the results depend on the processing

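Of 65 fold changes and interactions given for single genes, 33 were called, and each kept its direction under each alternative run, with 40 of 492 alternative values no longer called. Of the uncalled, 19 of 583 alternative values were called and 6 turned sign. These were Il1r1 with LPS under total counts alone (-0.21 in WT, -0.24 in KO), Il1r1 with LPS without WT vehicle replicate 1 (-0.0685 to 0.6244 over single libraries left out) or KO LPS replicate 5 (-0.0749 to 0.2707), Il1r1 for CCM under LPS without WT LPS+CCM replicate 2 (-0.6019 to 0.0777), and Il1a for CCM alone in KO without vehicle replicate 2 (-0.894 to 0.0268). Total counts alone moved the median of all genes with LPS to -0.47 in WT and -0.44 in KO. With libraries left out in turn, 7 to 8 genes were called with LPS in WT, 4 to 6 for CCM under LPS in WT, 5 to 6 for LPS+CCM against CCM in KO and 1 to 3 for the WT interaction of LPS and CCM.

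For CCM under LPS, the count of genes called was 0 with all 36 libraries in 1 fit in WT, and in KO 2 with DESeq2 (180 of all genes) and 3 without KO replicate 6 (170), against 15 of all genes. For the WT interaction of LPS and CCM, with 2 in the main fit, it was 1 with total counts alone and 0 with all 36 libraries. It was 3, with Il1a added, with DESeq2, with no filter on low counts and with the replicate block. For CCM alone in WT it was 1 with no filter (377 of all genes against 8). For LPS in KO it was 7 with DESeq2, with Il1r2 added (7591 of all genes against 6433). The cause was not tested.

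With the replicate number as a block, the count went from 0 to 4 for CCM under LPS in KO (Il1a, Il1rn, Il18 and Il18bp, adjusted p of 0.00162, 0.0166, 0.0155 and 0.0067), where same-numbered libraries correlated by -0.102 to 0.813 and so were not taken as paired, from 0 to 1 for CCM alone in KO and from 0 to 1 for the KO interaction of LPS and CCM (Il18bp, adjusted p of 0.0377). Over all genes the block called 777 against 15, 429 against 0 and 81 against 1. Elsewhere it changed counts by 1 gene at most. Depth was lowest for Il1r2, with at most 18 counts in a library, and for Il1r1, with as few as 11.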

Other observations

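Il1r2, which did not pass the filter in KO, was at 0.50 to 1.05 CPM with LPS and 0.11 to 0.44 CPM with LPS+CCM in KO, without overlap and lower in 6 of 6 same-numbered pairs. These levels rest on 8 to 17 and 3 to 9 counts per library, and same-numbered libraries were not taken as paired here. With no filter on low counts 0 of the 9 genes, Il1r2 included, were called in this comparison (edgeR), and the genotype by CCM interaction under LPS for Il1r2 was -0.71 (SE 0.61, edgeR adjusted p = 1). Il1a was at 0.145 CPM, or 2 counts, in KO CCM replicate 6, against 0.993 to 3.09 CPM in the other KO CCM libraries. After group means were taken out, Il1r1 and Il1rl1 deviated together over the 36 libraries (r = 0.58), Il1a with Il1rap (r = 0.67) and Il18 against Il1rap (r = -0.64), and these values share the libraries of KO replicate 6.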
